A study of Mus musculus with 13 samples.

Results

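In irradiated thymic stroma, the genes that mark cortical thymic epithelial cells (cTECs) had a median log2 difference from steady state of -0.86 at day 1, 0.52 at day 4 and -0.66 at day 7. Of the 9 genes, 9 had a higher fitted level at day 4 than at day 1 (median log2 difference 1.66, all genes -0.10). All 9 had a lower one at day 7 than at day 4 (-1.27, all genes 0.11), as had 8 of 8 general epithelial markers. With a score of those markers as a covariate, Prss16, Dll4, Tbata and Cd83 had positive estimates at day 7 against day 4. None of these passed (edgeR adjusted p of 0.432 to 0.924), and the score itself did not overlap between days 4 and 7. Without Krt8 and Krt18 in the score, the estimate of Tbata was -0.20. In the main test only cathepsin L (Ctsl) passed, at day 4 against day 1, and this call held in 9 of 24 alternative fits. Some of those fits, given below, called other genes. Ctsl is also expressed outside cTECs. Over the 13 libraries its Pearson's r was 0.17 with the score of general epithelial markers and 0.40 with that of fibroblast markers. Which cells its change came from was not tested. At day 1 the thymus-specific serine protease Prss16 and the surface protein Cd83 were at or below 16.9 and 1.07 CPM (counts scaled to library size) in 2 of 3 libraries, against at least 216 and 27.9 CPM in every steady-state library, while the third day 1 library held them at 451 and 29.6 CPM. The glutamyl aminopeptidase gene Enpep, in contrast, stayed between 66.8 and 123 CPM in all 13 libraries.

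The 9 genes, Foxn1, Prss16, Ly75, Enpep, Dll4, Tbata, Ctsl, Cd83 and Pax1, were chosen as identity genes of cTECs from their known roles. The choice was made with earlier results of these data known, so it was not independent of them. The genes were found by mouse gene symbol among the 53379 genes of the bulk count table, where each symbol matched 1 gene. cTECs form the meshwork of the thymic cortex, in which immature T cells commit to their lineage, rearrange their receptors and are positively selected. FOXN1 is the transcription factor on which the differentiation of thymic epithelial cells (TECs) depends, and among the genes it is known to activate are a Notch ligand, chemokines and proteases. Through these, cTECs draw progenitors in, switch them to the T cell fate and present them with a distinct set of self-peptides.

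Bulk RNA-seq was made from CD45- thymic stroma cells of wild-type C57BL/6 mice that were 2 months old in every group. There were 4 libraries at steady state, and sublethal total body irradiation (TBI) was followed by 3 libraries at each of days 1, 4 and 7. The labels call the steady-state mice untreated, whereas the column names call them PBS (phosphate-buffered saline) of day 1 replicate 2, day 4 replicate 2, day 7 replicate 1 and day 7 replicate 2, and these names are used here. The sort leaves out CD45+ cells but does not enrich TECs, so each library mixes epithelial cells, endothelial cells and fibroblasts. The study's methods call the bulk libraries biological replicates, while the labels do not tie a library to a mouse, so p-values measure the spread between these libraries. In such bulk samples, fewer cells of a type and less RNA per cell cannot be told apart.

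Promoter windows from RefSeq (GRCm38.p6, 250 bases before to 50 after the start) were found for 7 of the 9 genes. Prss16 and Cd83 had none in the table. The start is that of RefSeq and can differ from the end of the counted gene. The windows of Pax1 and Ctsl lie inside the gene spans given below. The windows printed here belong to Ctsl, which had the 1 called change, to Enpep, whose level moved least with the epithelial content of the libraries, and to Pax1, whose level moved most with it. They are written 5′ to 3′ in lower case, with matches on either strand to GACGC, the core reported for FOXN1 binding, in capitals. That core was in 2 of the 7 windows, 8 bases before the RefSeq start of Enpep and 86 bases before that of Pax1, and in 27.2% of the 32851 windows of all genes. The longer GACGCA, which contains GACGC, was in 0 of the 7 and in 7.03% of all. A match is a description of letters and not a binding site.
Ctsl, chr13:64370471-64370770, minus strand: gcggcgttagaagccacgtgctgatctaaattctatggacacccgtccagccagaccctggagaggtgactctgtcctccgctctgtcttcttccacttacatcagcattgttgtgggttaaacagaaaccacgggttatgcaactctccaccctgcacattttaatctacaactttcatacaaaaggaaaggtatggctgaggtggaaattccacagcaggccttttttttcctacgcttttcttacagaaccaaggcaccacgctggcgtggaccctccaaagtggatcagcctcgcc
Enpep, chr3:129332700-129332999, minus strand: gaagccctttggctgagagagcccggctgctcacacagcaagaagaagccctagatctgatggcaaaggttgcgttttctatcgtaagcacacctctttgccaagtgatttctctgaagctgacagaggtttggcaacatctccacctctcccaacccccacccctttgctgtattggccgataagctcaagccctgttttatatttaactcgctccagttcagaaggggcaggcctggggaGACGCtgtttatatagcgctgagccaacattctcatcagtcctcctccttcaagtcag
Pax1, chr2:147364744-147365043, plus strand: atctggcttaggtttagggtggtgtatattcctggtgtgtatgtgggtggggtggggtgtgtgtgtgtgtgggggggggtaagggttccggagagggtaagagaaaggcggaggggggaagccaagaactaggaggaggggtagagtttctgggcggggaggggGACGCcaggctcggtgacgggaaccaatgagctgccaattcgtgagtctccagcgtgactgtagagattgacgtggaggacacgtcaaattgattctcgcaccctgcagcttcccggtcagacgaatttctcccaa

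Total counts per library ran from 15721866 to 52056896, so a count of 3, taken as the floor of detection, is worth well below 1 CPM in each library. All 9 genes passed the filter on low counts, and the lowest count of any of them was 15 reads (Cd83, day 1 replicate 2). The markers of the cells expected in this sort were present in every library: the summed level of 8 endothelial markers was 941 to 1475 CPM, and that of 8 general epithelial markers was 661 to 2863 CPM. Cells that the sort should remove also left RNA, with 10 thymocyte markers at a sum of 197 to 634 CPM at steady state, 99.2 to 127 at day 1, 18.1 to 29.7 at day 4 and 177 to 4050 at day 7. The sum of 5 erythroid markers was 1562 to 3582 CPM at steady state, 291 to 974 at day 1, 4.39 to 7.16 at day 4 and 283 to 777 at day 7. These contents moved with the conditions, and their part in the values below was not tested unless a value is given.

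In the fit of all 19984 tested genes (edgeR quasi-likelihood test, Benjamini-Hochberg adjusted p of 0.05 or less), 0 of the 9 cTEC genes passed at day 1 against steady state, where 2.35% of all genes did. The count was also 0 at day 4 against steady state (0.29% of all genes) and at day 7 against steady state (0.005%). Between time points after TBI, 1 gene, Ctsl, passed at day 4 against day 1 (1.43% of all genes), 0 passed at day 7 against day 1 (8.13%) and 0 passed at day 7 against day 4 (3.9%). Over the 4 conditions together 1 gene, again Ctsl, passed (6.66% of all genes). At an unadjusted p under 0.05, the same test held 4 of the 9 at day 1 (17.2% of all genes), 1 at day 4 (13%) and 0 at day 7 (13.5%) against steady state. It held 6 at day 4 against day 1 (13.7%), 1 at day 7 against day 1 (23.9%) and 5 at day 7 against day 4 (18.7%). By DESeq2, whose adjusted test called more of all genes in each comparison, the counts were 1 at day 1 (7.76% of all genes with an adjusted p), 0 at day 4 (3.23%) and 0 at day 7 (5.42%) against steady state. They were 4 at day 4 against day 1 (5.11%), 0 at day 7 against day 1 (14.7%) and 4 at day 7 against day 4 (9.61%). The 3 comparisons with steady state share its 4 libraries, as those with day 1 share its 3, so they are not independent of each other.

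**Figure D1:**
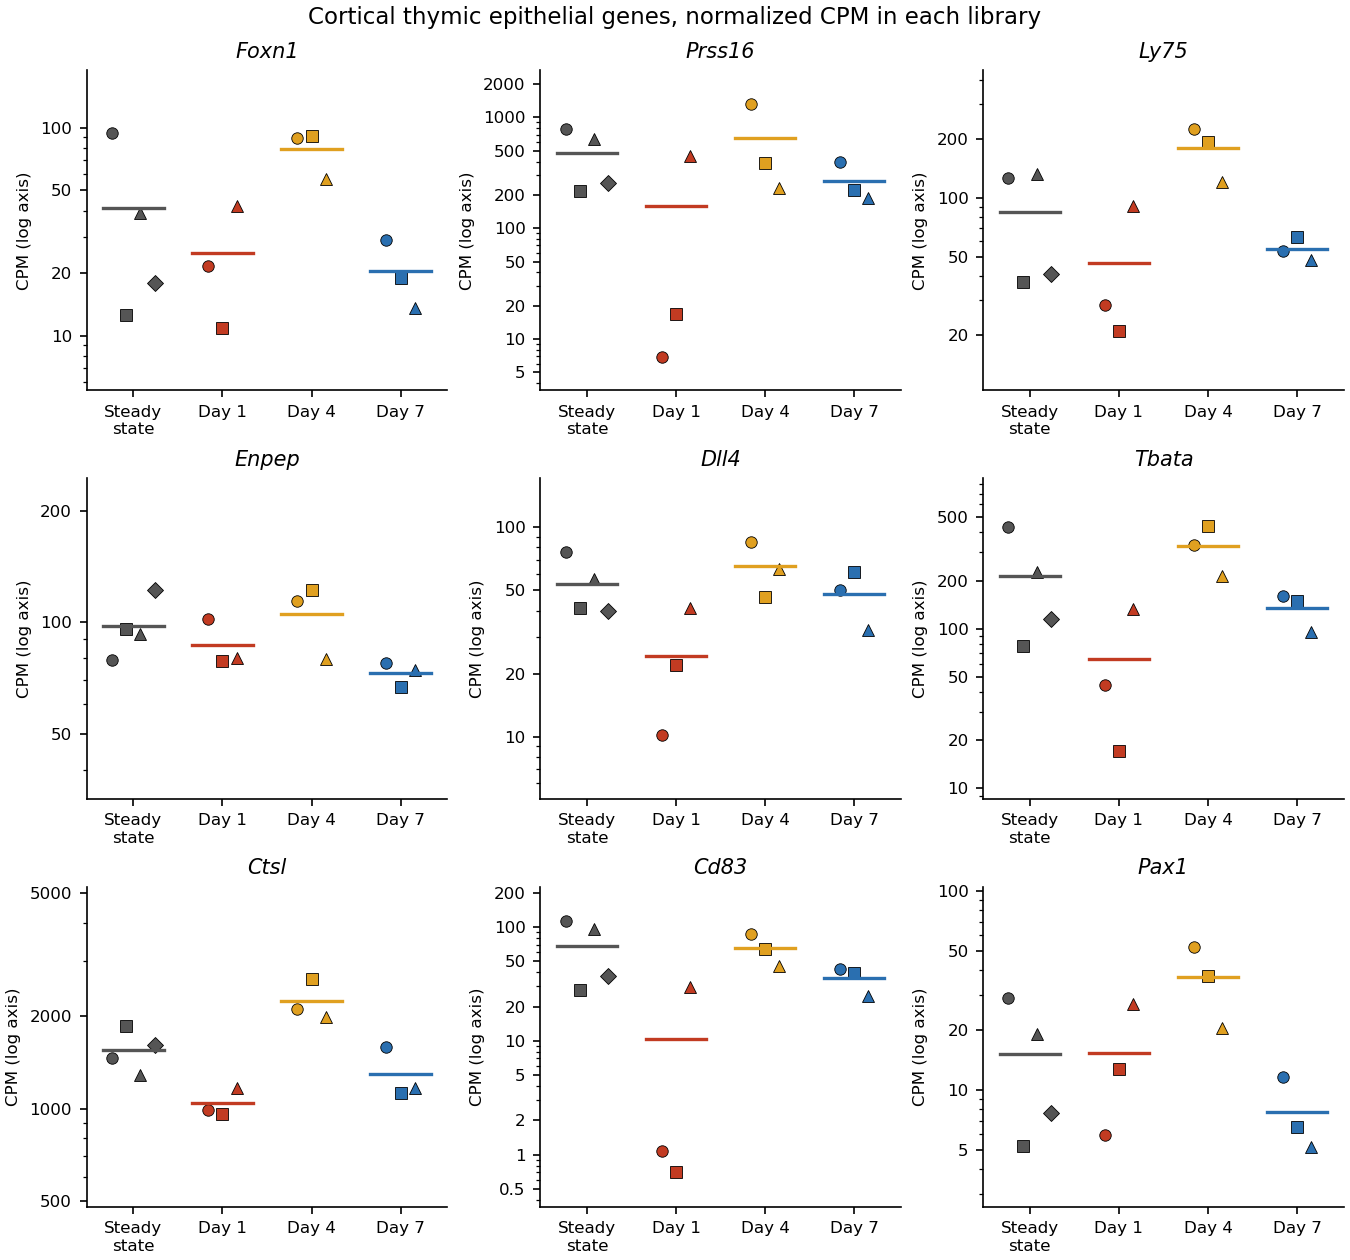
Normalized CPM (log axis) of the 9 genes in each of 13 libraries, by condition; points are libraries (circle, square, triangle and diamond in the order PBS day 1 replicate 2, PBS day 4 replicate 2, PBS day 7 replicate 1 and PBS day 7 replicate 2 at steady state, and replicates 1, 2 and 3 after TBI) and lines are arithmetic means. All day 4 libraries lie above all day 1 libraries for 6 of the genes (26.3% of all genes did not overlap, in either direction), and 2 of the 3 day 1 libraries hold Prss16 and Cd83 far below all others.

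Of the transcription factors, Foxn1 (ENSMUSG00000002057, chr11:78357577-78386558 on the minus strand of GRCm38) was at 94.6, 12.6, 39.0 and 18.0 CPM in the steady-state libraries (in the order given above) and at 21.7, 10.9 and 42.3 at day 1. It was at 88.9, 91.8 and 56.9 at day 4 and at 29.0, 18.9 and 13.5 at day 7. Every day 4 library was above every day 1 and every day 7 library, but the steady-state libraries spanned 7.49 times from lowest to highest and overlapped each time point. Against steady state (41.1 CPM ± 37.5, SD, n = 4) the log2 fold change of Foxn1 was -0.72 at day 1 (SE 0.647, adjusted p = 0.587), 0.95 at day 4 (SE 0.643, adjusted p = 0.493) and -1.005 at day 7 (SE 0.667, adjusted p = 0.574). The difference from day 1 to day 4 was 1.66 (SE 0.752, adjusted p = 0.285) and that from day 4 to day 7 was -1.95 (SE 0.781, adjusted p = 0.131). The day 7 difference from day 4 passed with DESeq2 (-2.01, adjusted p = 0.0280). Left without PBS day 1 replicate 2, the day 1 difference of Foxn1 from steady state became 0.15 (adjusted p = 0.918).

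Pax1 (ENSMUSG00000037034, chr2:147361925-147393295, plus strand), which encodes a paired-box factor of pharyngeal pouch and thymus development, had the lowest counts per length of the 9. It was at 28.8, 5.25, 19.1 and 7.65 CPM at steady state and at 5.97, 12.8 and 27.1 at day 1. It was at 52.5, 37.4 and 20.4 at day 4 and at 11.6, 6.54 and 5.18 at day 7. All day 4 libraries were above all day 7 libraries, and no other conditions were separated. The log2 fold change was 0.01 at day 1 (SE 0.616), 1.27 at day 4 (SE 0.660, adjusted p = 0.391) and -0.97 at day 7 (SE 0.660, adjusted p = 0.594), each against steady state. At day 7 against day 4 it was -2.24 (SE 0.807, adjusted p = 0.0867), which passed with DESeq2 (-2.29, adjusted p = 0.00774).

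Dll4 (ENSMUSG00000027314, chr2:119325784-119335962, plus strand) encodes the Notch ligand through which cortical epithelium drives T lineage commitment, and it is also made by vascular endothelium. Its values were 75.7, 41.3, 56.8 and 39.9 CPM at steady state and 10.2, 21.96 and 41.0 CPM at day 1. They were 85.3, 46.6 and 63.4 CPM at day 4 and 50.03, 61.4 and 32.3 CPM at day 7. All day 1 libraries were below all day 4 libraries, and day 1 replicates 1 and 2 were below every steady-state library while replicate 3 was above the lowest of them. The log2 fold change was -1.13 at day 1 (SE 0.483, adjusted p = 0.196), 0.28 at day 4 (SE 0.421, adjusted p = 0.770) and -0.16 at day 7 (SE 0.421, adjusted p = 0.961) against steady state, and 1.42 at day 4 against day 1 (SE 0.530, adjusted p = 0.170). The sum of 8 endothelial markers overlapped between conditions, at 941 to 1421 CPM at steady state, 955 to 1347 at day 1, 1169 to 1475 at day 4 and 998 to 1411 at day 7. Within the list the markers differed, with 4 positive and 4 negative estimates at day 1 against steady state. Kdr, for one, was at 89.3, 142 and 211 CPM at day 1 and at 173 to 438 CPM at steady state. The part of endothelial cells in the Dll4 values was not tested.

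Of the proteases that shape the peptides of positive selection, Ctsl (ENSMUSG00000021477, chr13:64359337-64370890, minus strand) encodes the lysosomal cathepsin L, which takes part in making MHC class II ligands in cTECs but is also expressed in fibroblasts and macrophages. It was at 1458, 1853, 1282 and 1613 CPM at steady state and at 991, 961 and 1164 at day 1. It was at 2098, 2621 and 1978 at day 4 and at 1589, 1123 and 1168 at day 7. All day 1 libraries were below and all day 4 libraries were above every steady-state library, and day 7 overlapped steady state. Ctsl rose from 1039 CPM ± 109.7 (SD, n = 3) at day 1 to 2232 CPM ± 342 (SD, n = 3) at day 4, a log2 fold change of 1.10 (SE 0.318, adjusted p = 0.0404). Against steady state it was -0.58 at day 1 (SE 0.256, adjusted p = 0.217), 0.52 at day 4 (SE 0.248, adjusted p = 0.352) and -0.26 at day 7 (SE 0.235, adjusted p = 0.739). Over the 4 conditions the adjusted p was 0.0475.

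The rise of Ctsl was close to the threshold and held in 9 of 24 alternative fits, with log2 values from 0.80 to 1.20 in all of them. It was lost with the thymocyte score as a covariate (0.80, adjusted p = 0.164) and with the tag family (the start of an unexplained tag in the column names) as a covariate (0.95, adjusted p = 0.142), with a replicate block, with only the conditions compared, and in 10 of 13 fits that left out 1 library. Without the filter on low counts Ctsl was not called (1.09, adjusted p = 0.0721), and Tbata was called in its place (2.32, adjusted p = 0.0419). Of the exonic bases of Ctsl, 26.85% overlap exons of Gm47123 or Gm49230 in the annotation, so its counts are less certain than those of the other 8 genes, for which the overlap was at most 5.56%.

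Prss16 (ENSMUSG00000006179, chr13:22002173-22009742, minus strand), the serine protease of cortical lysosomes, was the gene with the widest range. It stood at 784, 216, 635 and 256 CPM at steady state, 1332, 386 and 229.7 at day 4 and 399, 220.3 and 187 at day 7. At day 1 it was at 6.87, 16.9 and 451 CPM, from 243, 365 and 21515 reads. Day 1 replicates 1 and 2 were thus below every library of the other conditions, while replicate 3 was within the steady-state range. With all libraries the log2 fold change of Prss16 was -1.58 at day 1 (SE 1.17, adjusted p = 0.499), 0.46 at day 4 (SE 1.08, adjusted p = 0.863) and -0.81 at day 7 (SE 1.11, adjusted p = 0.885) against steady state.

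Tbata (ENSMUSG00000020096, chr10:61171954-61188841, plus strand), a thymus and testis gene of the epithelium whose protein has been tied to TEC growth, was at 432, 77.6, 225 and 115 CPM at steady state and at 44.1, 17.2 and 132 CPM at day 1. It was at 334, 436 and 212 CPM at day 4 and at 159, 149.9 and 94.8 CPM at day 7. Day 4 was above day 1 and above day 7 in every library, and day 1 replicates 1 and 2 were the lowest of all 13. The log2 fold change of Tbata was -1.72 at day 1 (SE 0.756, adjusted p = 0.214), 0.62 at day 4 (SE 0.653, adjusted p = 0.657) and -0.66 at day 7 (SE 0.668, adjusted p = 0.796) against steady state. At day 4 against day 1 it was 2.34 (SE 0.849, adjusted p = 0.148), and 2.38 with DESeq2 (adjusted p = 0.0142).

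Of the surface proteins, Cd83 (ENSMUSG00000015396, chr13:43784775-43803132, plus strand), which limits the removal of MHC class II from the cTEC surface, was at 113, 27.9, 95.7 and 36.8 CPM at steady state, 87.6, 63.5 and 45.5 at day 4 and 42.7, 39.7 and 25.0 at day 7. At day 1 it was at 1.07, 0.697 and 29.6 CPM, from 38, 15 and 1415 reads, so that replicates 1 and 2 were below all other libraries and replicate 3 lay within the steady-state range. The log2 fold change of Cd83 was -2.70 at day 1 (SE 1.17, adjusted p = 0.204), -0.06 at day 4 (SE 0.949, adjusted p = 0.980) and -0.93 at day 7 (SE 0.987, adjusted p = 0.813) against steady state, and the first passed with DESeq2 (-2.67, adjusted p = 0.0383). Cd83 is also made by dendritic cells and activated lymphocytes, and 8 macrophage and dendritic cell markers summed to 48.5 to 177 CPM at steady state and 69.1 to 122 CPM at day 1.

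Ly75 (ENSMUSG00000026980, chr2:60292103-60383303, minus strand) encodes CD205, the endocytic receptor by which cTECs are sorted. It was at 126, 37.3, 131 and 40.7 CPM at steady state and at 28.3, 20.8 and 90.1 at day 1. It was at 223, 193 and 119.6 at day 4 and at 53.4, 63.0 and 48.2 at day 7. Day 4 was above day 1 and day 7 without overlap. The log2 fold change of Ly75 was -0.86 at day 1 (SE 0.582, adjusted p = 0.452), 1.09 at day 4 (SE 0.582, adjusted p = 0.404) and -0.61 at day 7 (SE 0.566, adjusted p = 0.754) against steady state. From day 1 to day 4 it was 1.94 (SE 0.707, adjusted p = 0.151) and from day 4 to day 7 -1.70 (SE 0.681, adjusted p = 0.131), and DESeq2 put both past the threshold (1.97, adjusted p = 0.0202, and -1.76, adjusted p = 0.0305).

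Enpep (ENSMUSG00000028024, chr3:129269175-129332720, minus strand) encodes the aminopeptidase recognized as Ly51, the other sorting marker of cTECs, and is known in pericytes and other stromal cells as well. It was at 79.3, 95.8, 93.0 and 122 CPM at steady state and at 102, 78.6 and 80.2 at day 1. It was at 114, 123 and 79.5 at day 4 and at 77.5, 66.8 and 74.4 at day 7. The day 7 libraries were below those of each other condition without overlap. The log2 fold change of Enpep was -0.17 at day 1 (SE 0.217), 0.11 at day 4 (SE 0.215) and -0.42 at day 7 (SE 0.231, adjusted p = 0.429) against steady state. The estimate of Enpep farthest from 0 in the 6 comparisons was -0.53 at day 7 against day 4 (SE 0.252, adjusted p = 0.221).

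As a group, the 9 genes had a median log2 fold change of -0.86 at day 1, 0.52 at day 4 and -0.66 at day 7 against steady state, beside medians of -0.10, -0.13 and 0.00 over all genes tested. From day 1 to day 4 the median was 1.66 (all genes -0.10), from day 1 to day 7 it was 0.32 (all genes 0.05), and from day 4 to day 7 it was -1.27 (all genes 0.11). Without overlap of the libraries, 1 of the 9 was lower at day 1 (15.8% of all genes did not overlap, in either direction), 1 was higher at day 4 (14.7%) and 1 was lower at day 7 (7.49%), against steady state. At day 4 against day 1, 6 were higher in every library (26.3% of all genes did not overlap): Foxn1, Ly75, Dll4, Tbata, Ctsl and Cd83. At day 7 against day 1, 1 was lower (27.5%), and at day 7 against day 4, 7 were lower (26.2%), all but Prss16 and Dll4.

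**Figure D2:**
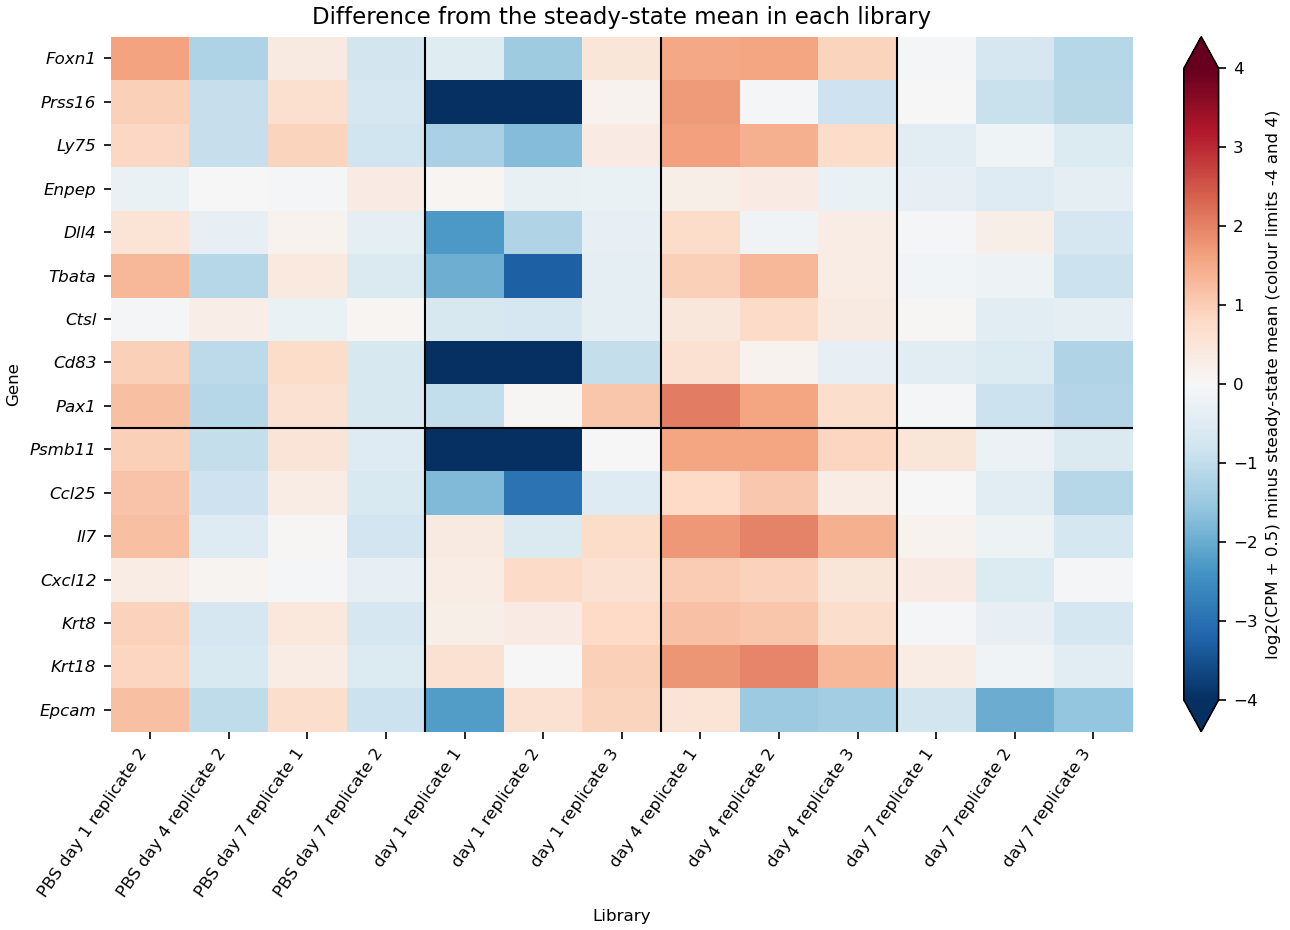
Difference of log2(CPM + 0.5) from the steady-state mean (colour, limits -4 and 4) in each library (columns, by condition) for the 9 genes (above the line) and for 7 other cortical or epithelial genes (below it). Prss16, Cd83 and Psmb11 are darkest in day 1 replicates 1 and 2, whereas Krt8 and Krt18 are near or above the steady-state mean there.

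The libraries of day 1 differed among themselves. Day 1 replicate 3 was within the steady-state range for 8 of the 9 genes, all but Ctsl, whereas replicates 1 and 2 were below it for Prss16, Ly75, Dll4, Tbata, Cd83 and Ctsl. The same split was seen in Psmb11, which encodes the thymoproteasome subunit of cTECs (1.78, 1.58 and 88.1 CPM at day 1, and 46.2 to 173 at steady state), and in the cTEC chemokine Ccl25 (52.1, 22.6 and 126 CPM, and 100.4 to 395 at steady state). It was much smaller in the epithelial keratin Krt8, at 445, 481 and 662 CPM. Epcam, a general epithelial marker, was low in replicate 1 only, at 14.0, 103 and 127 CPM at day 1 against 33.4 to 155 CPM at steady state. The sums of thymocyte and erythroid markers, given above, were below those of every steady-state library in all 3 day 1 libraries. What sets day 1 replicate 3 apart was not tested.

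Without day 1 replicate 3, day 1 was left with replicates 1 and 2 only. Replicate 3 was singled out by values such as those of Prss16 and Cd83. The calls of these genes without it follow from that choice and are given as description. The edgeR fit then called 2 of the 9 genes at day 1 against steady state (1.96% of all genes): Prss16 fell by 5.31 (adjusted p = 0.0124) and Cd83 fell by 6.25 on the log2 scale (adjusted p = 0.000769). At day 4 against day 1 it called 5 (1.51% of all genes): Prss16 (5.77, adjusted p = 0.0124), Cd83 (6.18, adjusted p = 0.00146), Tbata (3.41, adjusted p = 0.0416), Ly75 (2.86, adjusted p = 0.0324) and Dll4 (2.02, adjusted p = 0.0492), whereas Ctsl no longer passed (1.19, adjusted p = 0.0701). At day 7 against day 1 it called 2 (3.73% of all genes), Prss16 (4.50, adjusted p = 0.0257) and Cd83 (5.31, adjusted p = 0.00244). Of 23 alternatives, the fall of Prss16 at day 1 was called in this 1. That of Cd83 was called in 4, which are this one and, with all libraries in the fit, DESeq2, the epithelial score described below and the same score without Krt8 and Krt18. Day 1 replicate 3 was not left out of the values given elsewhere.

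The steady-state libraries also differed, and in the same way for most of the genes. PBS day 1 replicate 2 and PBS day 7 replicate 1 held the 2 highest values of Foxn1, Prss16, Ly75, Dll4, Tbata, Cd83 and Pax1, and the lowest 2 values of Ctsl and Enpep. The general epithelial markers followed this order, with Krt8 at 727 and 515 CPM in those 2 libraries and 238 and 236 CPM in the other 2. Fibroblast markers ran the opposite way, with a sum of 7 markers at 18373 and 33453 CPM in those libraries and 147173 and 87326 CPM in the others, as did Ctsl and Enpep. Levels were therefore also taken relative to the epithelial score, the mean of log2(CPM + 0.5) over 8 epithelial markers that include none of the 9 genes (Epcam, Cdh1, Krt8, Krt18, Cldn7, Esrp1, Perp and Spint1). Krt8 and Krt18 also mark cTECs, and a score without them was run as an alternative.

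The markers of the score did not move together in every library. Epcam was at 99.8 to 155 CPM in the 5 libraries whose column tag is of neither family (PBS day 1 replicate 2, PBS day 7 replicate 1, day 1 replicates 2 and 3 and day 4 replicate 1) and at 14.0 to 40.1 CPM in the other 8, without overlap. Perp (185 to 282 against 48.5 to 120.5 CPM) and Spint1 (40.1 to 84.8 against 9.42 to 22.1 CPM) were split in the same way, whereas the other 5 markers and all 9 cTEC genes overlapped over the 13 libraries. Within steady state, however, the tag split was the same as the split of the cTEC genes. PBS day 1 replicate 2 and PBS day 7 replicate 1, of neither family, were the libraries high in most of these genes and low in Ctsl and Enpep. Tag family and epithelial content cannot be told apart there. No day 7 library had a tag of neither family. At day 4, Epcam was thus at 99.8, 24.4 and 25.5 CPM while Krt18 was at 1280, 1436 and 934 CPM, against 244 to 678 CPM at steady state. A score of the other 5 markers, without Epcam, Perp and Spint1, was therefore added after these values were seen, and results that it changes are given beside those of the 8 markers.

 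At steady state the SD of the log2 level shrank from 0.93 to 0.11 for Prss16, from 1.27 to 0.39 for Foxn1, from 0.99 to 0.27 for Ly75, from 1.09 to 0.24 for Tbata, from 0.99 to 0.17 for Cd83 and from 1.09 to 0.19 for Pax1. It widened for Dll4 (0.43 to 0.52), Enpep (0.26 to 1.15) and Ctsl (0.23 to 1.12).

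**Figure D3:**
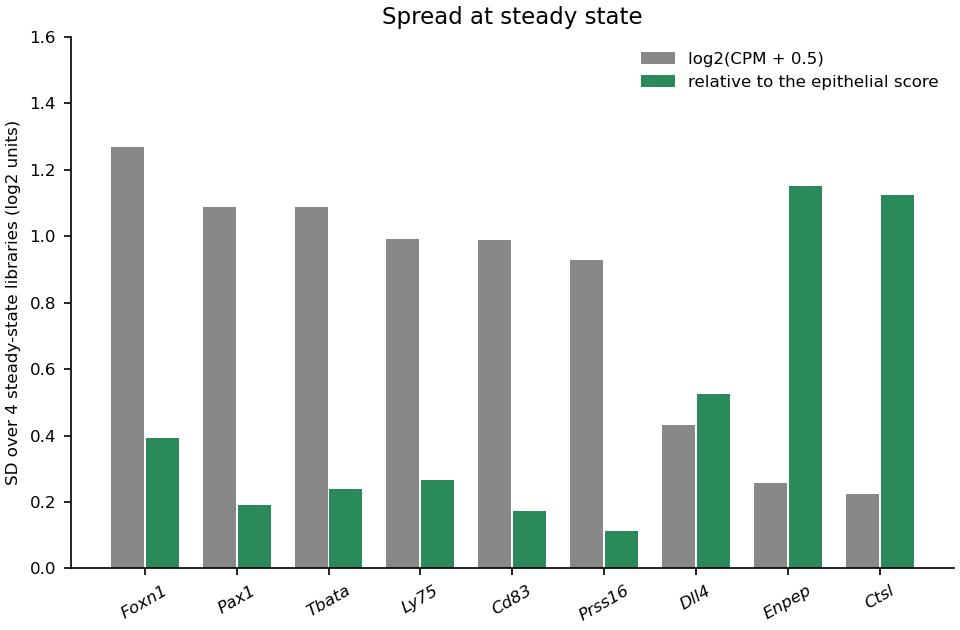
SD over the 4 steady-state libraries, in log2 units, of each gene's level (grey bars) and of its level relative to the epithelial score (green bars). The green bar is the shorter for 6 genes, down to 0.11 for Prss16, and the taller for Dll4, Enpep and Ctsl.

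Relative to the epithelial score, 5 of the 9 genes were lower in every day 1 library than in any steady-state library, where 5.09% of all genes did not overlap in either direction. They were Cd83 (difference of the mean log2 levels -4.21), Prss16 (-3.69), Tbata (-2.16), Dll4 (-1.57) and Ly75 (-1.20). Relative to the score of 5 markers the same 5 genes were lower (12.6% of all genes did not overlap). Day 1 replicate 3 was part of this, with Prss16 at 1.69 against 2.28 to 2.55 at steady state and Cd83 at -2.21 against -0.56 to -0.18. Pax1 did not show it, at -3.22, -2.88 and -2.34 at day 1 and -2.87 to -2.46 at steady state. Nor did Foxn1, at -1.44, -3.10 and -1.71 at day 1 and -1.68 to -0.76 at steady state.

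At day 4, 3 genes were higher relative to the epithelial score than in any steady-state library (11.3% of all genes did not overlap): Pax1 (difference of means 0.99), Foxn1 (0.88) and Ly75 (0.83). This did not hold relative to the score of 5 markers, where these 3 genes overlapped steady state (differences 0.50, 0.39 and 0.33) and Cd83 was lower in every library (-0.82), beside 32.7% of all genes without overlap. Against day 1, 6 genes were higher in every day 4 library (9.7% of all genes): Cd83 (3.89), Tbata (2.57), Ly75 (2.02), Foxn1 (1.65), Dll4 (1.41) and Pax1 (1.22). With the 5 markers the count was again 6 (29.4% of all genes), with Ctsl (0.73) in place of Pax1. Prss16 overlapped in this comparison because day 1 replicate 3, at 1.69, was above day 4 replicate 3, at 1.37. At day 7, Tbata was the 1 gene higher in every library than at steady state (0.53), beside 5% of all genes, and this held with the 5 markers (0.36, 4.15% of all genes). The relative levels of Prss16 and Cd83 were 2.53 to 2.86 and -0.34 to 0.07, each overlapping steady state. The epithelial score itself ran from 5.003 to 5.78 at day 7, which overlapped steady state (5.39 to 7.33) and was below all libraries of days 1 and 4 (5.91 to 7.13 and 6.48 to 7.16).

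**Figure D4:**
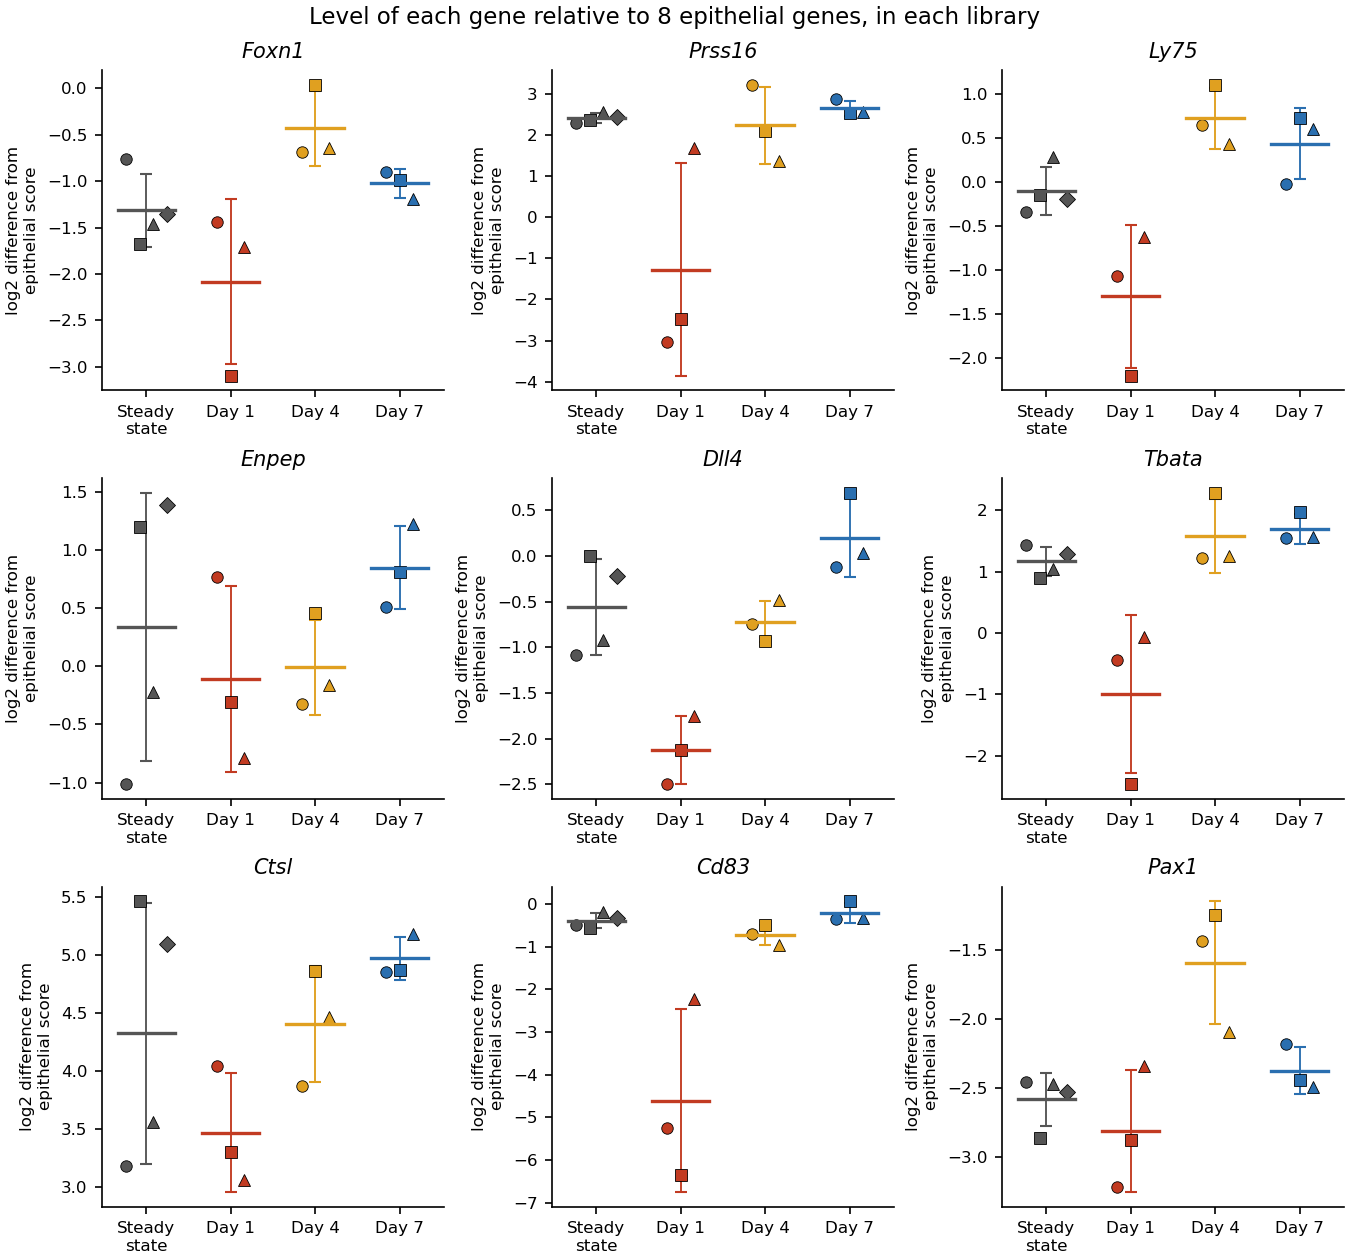
Level of each of the 9 genes as the log2 difference from the epithelial score, by condition; points are the 13 libraries (symbols in the order of the libraries within a condition), lines are means and bars are SDs. Day 1 lies below steady state without overlap for Prss16, Ly75, Dll4, Tbata and Cd83 (5.09% of all genes did not overlap, in either direction). Day 4 lies above it for Foxn1, Ly75 and Pax1 (11.3% of all genes), which did not hold relative to the score without Epcam, Perp and Spint1.

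With the epithelial score as a covariate in the edgeR fit, 3 of the 9 genes fell at day 1 against steady state, where 5.49% of all genes passed. These were Cd83 (log2 fold change -3.72, SE 1.17, adjusted p = 0.0363), Tbata (-1.89, SE 0.618, adjusted p = 0.0456) and Dll4 (-1.45, SE 0.425, adjusted p = 0.0231). At day 4 against day 1, 5 rose (2.04% of all genes): Tbata (2.36, adjusted p = 0.0367), Ly75 (1.92, adjusted p = 0.0238), Dll4 (1.42, adjusted p = 0.0421), Pax1 (1.23, adjusted p = 0.0309) and Ctsl (1.11, adjusted p = 0.0316). At day 7 against day 1, 3 had a positive adjusted difference that passed (5.56% of all genes): Cd83 (4.41, adjusted p = 0.0496), Tbata (2.48, adjusted p = 0.0423) and Dll4 (1.97, adjusted p = 0.0252). The score did not overlap between day 7 (5.003 to 5.78) and day 1 (5.91 to 7.13), so these estimates are extrapolated. Without the covariate the libraries of day 7 and day 1 overlapped for all 3 genes, and none of them passed.

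In this fit 0 of the 9 passed at day 4 against steady state (0.605% of all genes), at day 7 against steady state (0%) and at day 7 against day 4 (0.6%). For Foxn1, Prss16, Ly75, Dll4, Tbata, Cd83 and Pax1, the estimate at day 7 against steady state was negative without the covariate and 0.40 to 0.92 with it. With the score of 5 markers as the covariate, Tbata (-2.42, adjusted p = 0.0178) and Foxn1 (-1.30, adjusted p = 0.0419) fell at day 1 against steady state (4.27% of all genes), while Cd83 (-3.73, adjusted p = 0.0654) and Dll4 (-1.49, adjusted p = 0.0613) did not pass. Ctsl (1.13, adjusted p = 0.0274) and Tbata (2.03, adjusted p = 0.0419) rose at day 4 against day 1 (2.45%), and Foxn1 (1.79, adjusted p = 0.0408) and Tbata (3.05, adjusted p = 0.0294) rose at day 7 against day 1 (4.28%).

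When 1 library at a time was left out of the fit with the 8 markers, Dll4 passed at day 1 against steady state in 9 of 13 fits, Cd83 in 7 and Tbata in 4, and at day 4 against day 1 Ly75 and Pax1 passed in 9 of 13, Dll4 and Tbata in 6 and Ctsl in 3. At day 7 against day 1, Dll4 passed in 10 of 13, Tbata in 4 and Cd83 in 2. Prss16 passed in 1 of the 13 fits in each of the 3 comparisons that involve day 1.

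**Figure D5:**
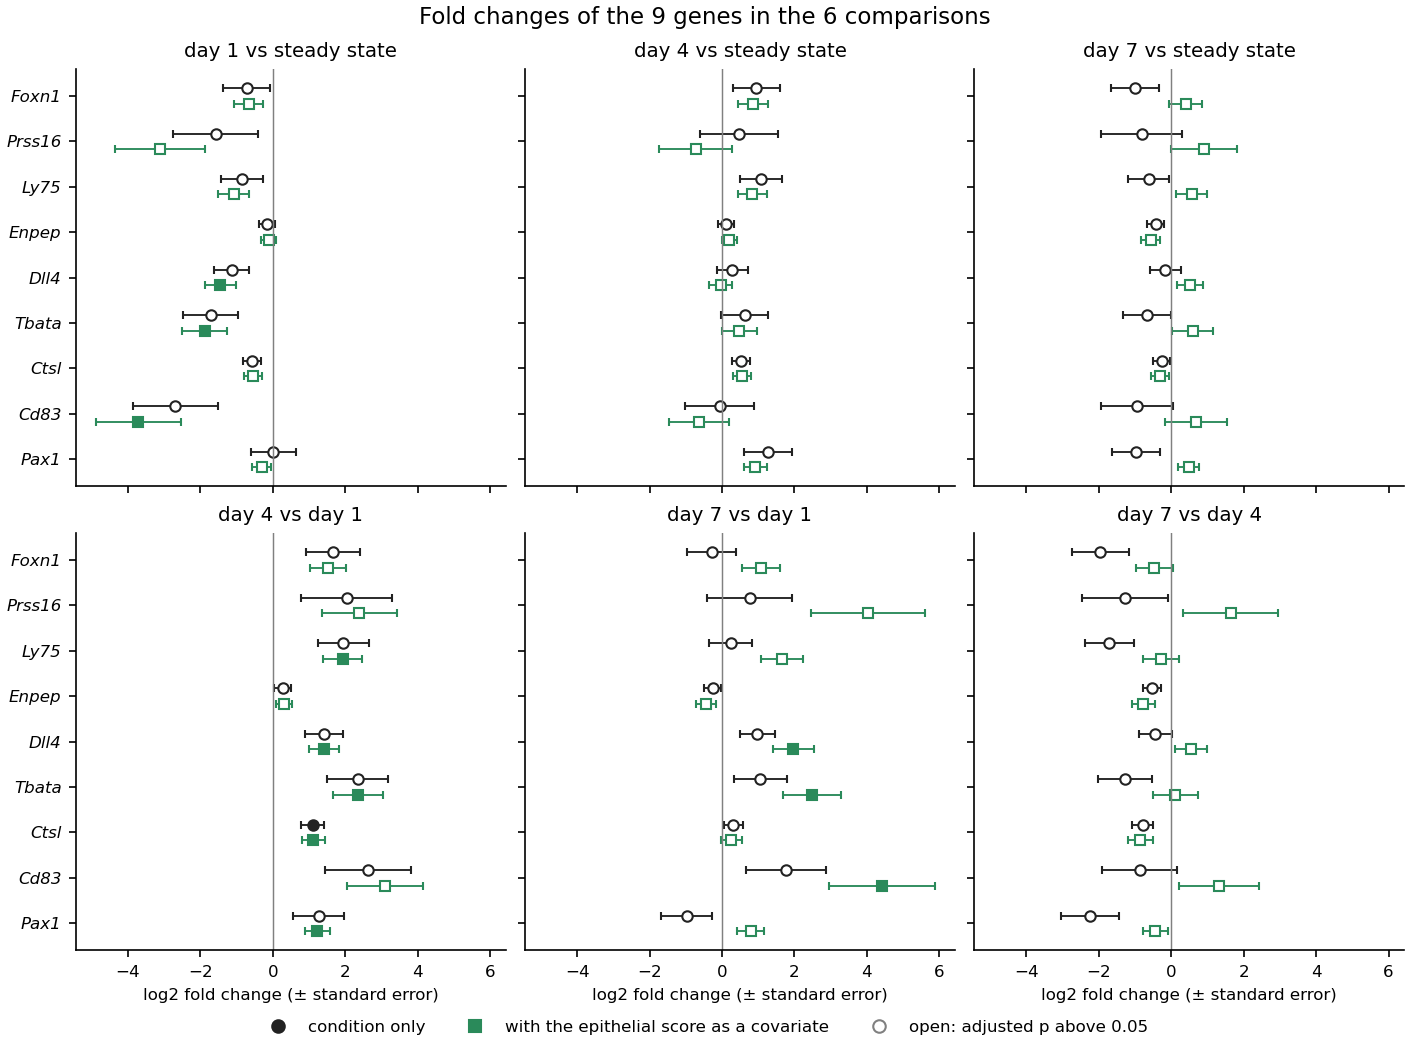
log2 fold changes with standard errors of the 9 genes in the 6 comparisons, from the fit with condition only (black circles) and with the epithelial score as a covariate (green squares); open symbols have an adjusted p above 0.05. Of the black symbols only Ctsl at day 4 against day 1 is filled, and of the green ones 11 are, all in comparisons with day 1.

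Of 11 further genes of cTEC identity and function (Psmb11, Ccl25, Cxcl12, Il7, Kitl, Ackr4, Krt8, Krt18, Cd274, Fgfr2 and Scx), 0 passed in the 3 comparisons with steady state or in those with day 1, and 2 fell at day 7 against day 4. These were Krt18 (-1.77, SE 0.525, adjusted p = 0.0317) and Il7, the cytokine of early thymocytes (-1.96, SE 0.621, adjusted p = 0.0449). In that comparison 11 of the 11 had a negative estimate (median -1.07). Ccl25 had -1.64 at day 1 against steady state (SE 0.671, adjusted p = 0.171), and -1.80 with the epithelial score as a covariate (adjusted p = 0.0302). The chemokine Cxcl12, which fibroblasts also make, had 0.56 at day 1 (SE 0.280, adjusted p = 0.283). Il7 had 0.06 (SE 0.454), beside negative estimates for 6 of the 11 genes at day 1. Of 11 transcription factors of thymus formation, 0 passed in any of the 6 comparisons, with median estimates of -0.27, -0.15 and -1.08 at days 1, 4 and 7 against steady state.

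Of 9 Notch ligands and modifying enzymes, Dll4 included, 0 passed in any comparison with steady state, and 1 fell at day 7 against day 1, the ligand Jag1 (-1.17, SE 0.396, adjusted p = 0.0442). Of 10 lysosomal proteases and related genes, Ctsl included, 1 rose at day 1 against steady state: Ctsc, which encodes cathepsin C (2.17, SE 0.502, adjusted p = 0.00258). Ctsc was at 566, 361 and 295 CPM at day 1 and at 53.1 to 133 CPM at steady state, without overlap, in the same libraries in which Ctsl was below steady state. It fell from day 1 to day 4 (-2.001, SE 0.509, adjusted p = 0.0131), where Ctsl rose.

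Levels of different genes were compared as CPM per kilobase of the deposited gene length. In the order of the means, Ctsl (239 CPM per kb at steady state), Prss16 (113) and Tbata (87.5) came first in each condition, and Pax1 came last (3.38 without TBI, then 3.40, 8.18 and 1.73 at days 1, 4 and 7). At day 1 the place of Prss16 came from replicate 3 (1.64, 4.05 and 108 CPM per kb in replicates 1, 2 and 3). Prss16 was above Tbata in 1 of 3 day 1 libraries, and Tbata was above Enpep in 1 of 3. At steady state, Ctsl was above Prss16 without overlap, and all other neighbours in the order overlapped: Prss16, Tbata, Cd83 (26.6), Enpep (20.7), Dll4 (13.9), Foxn1 (12.8), Ly75 (12.2) and Pax1. At day 1 the order after Tbata was Enpep (18.5), Foxn1 (7.77), Ly75 (6.72), Dll4 (6.32) and Cd83 (4.07), with Cd83 moved from the fourth place to the eighth, and Ctsl and Prss16, and Enpep and Foxn1, were the neighbours without overlap. At day 4 it was Ly75 (25.8), Cd83 (25.5), Foxn1 (24.6), Enpep (22.4) and Dll4 (16.9), of which only Tbata and Ly75, and Dll4 and Pax1, were neighbours without overlap. At day 7 it was Enpep (15.5), Cd83 (13.9), Dll4 (12.4), Ly75 (7.95) and Foxn1 (6.37), and Ctsl and Prss16, Tbata and Enpep, and Foxn1 and Pax1 were the neighbours without overlap.

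Over the 13 libraries, which share conditions and epithelial content, the genes fell into patterns that are given as descriptions. Among the 11459 genes with a mean of at least 5 CPM, the 3 most like Foxn1 (Pearson's r of log2(CPM + 0.5), n = 13 libraries) were Sh2d4b (0.98), Crip3 (0.97) and Isl1 (0.95). Those most like Pax1 were Osbpl10 (0.96), Ache (0.96) and Arhgef16 (0.95), and Pax1 had r = 0.89 with the epithelial score, the highest of the 9. Those most like Prss16 were Cd83 (0.96), Psmb11 (0.95) and Nefm (0.93), those most like Cd83 were Psmb11 (0.97), Prss16 (0.96) and Tdrp (0.94), and both had low r with the epithelial score (0.32 and 0.21). Those most like Tbata were Ccl25 (0.99), Ntf3 (0.94) and Kcnn3 (0.94), and those most like Ly75 were Nlgn1 (0.97), Fgf14 (0.97) and Apba2 (0.95). Dll4 was most like Pald1 (0.95), Sox7 (0.93) and Hspa12b (0.93), and it had r = 0.92 with Prss16. Ctsl was most like Entpd2 (0.95), Stc1 (0.94) and Abcc9 (0.94). Enpep had r of at most 0.28 with 7 of the other 8 genes and 0.56 with Ctsl.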

How the data were processed

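Bulk RNA-seq of CD45- thymic stroma was analysed for 13 libraries. Per the submitters' processing notes, reads were trimmed with Trimmomatic 0.38, aligned with STAR 2.7.0e to GRCm38.p5 (GENCODE M12) and counted per gene with featureCounts 1.6.3, and the authors deposited whole-number counts without normalization. The deposited table also gives each gene's length, used here for CPM per kb, and the number of other per-sample columns was 0. Symbols came from GENCODE M21, which named 53274 of the 53379 identifiers.

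All 13 libraries entered 1 fit in edgeR 4.0.16 (R 4.3.3, limma 3.58.1) with a term for condition, TMM normalization, filterByExpr (minimum count 10, minimum total 15) and the quasi-likelihood F-test. A gene counted as changed at an adjusted p of 0.05 or less, and standard errors were derived from the fold change and its p-value. CPM values are TMM-normalized, and log2 levels add a pseudocount of 0.5. The 9 genes are named in each comparison. Of the other lists, 5 fixed genes and up to 4 genes past the threshold were named, and likeness took the 3 genes with the highest r; that result for Enpep is not reported here. Without a deposited strand setting, reads of overlapping and antisense genes cannot be told apart. No 2 libraries agreed within sampling noise. Floors of 3 counts cover counting error only.

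The alternatives were DESeq2 1.42.0, RLE normalization, no filter, at least 10 counts in every library, a block for replicate number, a fit restricted to the compared conditions, covariates (thymocyte score, epithelial score, tag family) and each library left out in turn. Epithelial scores without Krt8 and Krt18 or without Epcam, Perp and Spint1, and leaving out libraries in the fit with the epithelial score, were added after seeing the data. The members and lists were chosen with earlier results of these data known. The steps were tested on simulated data. Python 3.11.15 and matplotlib 3.10.9 made tables and plots.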

Additional observations from a re-analysis of the deposited data

Results flagged for a closer look

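The change of Ctsl from steady state differed between days 1 and 4. Every day 1 library was below the steady-state range, at 961 to 1164 CPM, and every day 4 library was above it, at 1978 to 2621 CPM, beside 1282 to 1853 CPM at steady state. The test of the difference between the changes is that of day 4 against day 1, since the steady-state libraries cancel, and it gave a log2 difference of 1.10 (SE 0.318, edgeR adjusted p = 0.0404). The same libraries differed in thymocyte markers, which summed to 99.2 to 127 CPM at day 1 and 18.1 to 29.7 CPM at day 4, and with a thymocyte score as a covariate the difference was 0.80 (adjusted p = 0.164). At steady state, 23 values (CPM of the 9 genes and of Psmb11, Ccl25, Cxcl12, Il7 and Epcam, and levels of the 9 relative to the epithelial score) were screened with Dixon's ratio for 1 library apart from the other 3, and 0 stood out.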

How the results depend on the processing

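The direction of the 9 genes between days 1 and 4 held in each alternative fit, while counts of called genes did not. The number of the 9 called at day 1 against steady state was 0, and it was 1 by DESeq2 and with the tag family, 3 with the epithelial score, 2 with that score without Krt8 and Krt18 or of 5 markers (without Epcam, Perp and Spint1), and 0 to 2 when 1 library was left out (2 without day 1 replicate 3). At day 4 against steady state it was 0, and 1 with the score without Krt8 and Krt18. At day 4 against day 1 it was 1, and it was 4 by DESeq2, 5 with the epithelial score and without Krt8 and Krt18, 2 with that of 5 markers, 0 with the thymocyte score, the tag family or only the conditions compared, and 0 to 5 when 1 library was left out (5 without day 1 replicate 3, and 0 without any of 9 others, among them each other library of days 1 and 4). Without the filter it was 1, Tbata in place of Ctsl. At day 7 against day 1 it was 0, and it was 3, 2 and 2 with the 3 epithelial scores, 1 with the tag family and 0 to 2 when 1 library was left out. At day 7 against day 4 it was 0, and it was 4 by DESeq2, 2 with no filter or only the conditions compared, and 0 to 1 when 1 library was left out. Over the 4 conditions it was 1 (6.66% of all genes), and it was 5 by DESeq2, 3 with no filter, 0 with 10 counts in every library or the thymocyte score, 3 and 4 with the epithelial score and without Krt8 and Krt18, and 0 to 3 when 1 library was left out. For single comparisons, the share of all genes called is given above for DESeq2, the epithelial score, the score of 5 markers and the fit without day 1 replicate 3. It is not given for the other alternative fits, nor for any alternative fit over the 4 conditions. Those counts therefore cannot be set beside it, and a higher one may only follow a fit that calls more of all genes. The cause of the differences between fits was not tested. Over all genes, the count called ran from 241 to 1399 at day 1, 19 to 645 at day 4 and 0 to 1081 at day 7 against steady state, 54 to 960 at day 4 against day 1, 489 to 2940 at day 7 against day 1 and 0 to 1919 at day 7 against day 4, beside 469, 58, 1, 285, 1625 and 779 in the main test. DESeq2 gave the highest count in each.

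The replicate numbers were used as a block among the 9 libraries after TBI, where 0 of the 9 genes was called at day 4 against day 1 (Ctsl 1.10, adjusted p = 0.181). Libraries with the same number did not deviate together (mean r of the deviations -0.25, range -0.84 to 0.27, 9 pairs), so that the numbers were not taken to pair the libraries. No paired analysis was possible for steady state because its columns carry no replicate number of the labels. The fewest reads behind a value were 15 and 38, for Cd83 at day 1.

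Log2 fold changes that changed sign are given here, and none was called in either fit except Foxn1 at day 7 against day 1 with the score of 5 markers (adjusted p = 0.0408). With the filter of 10 counts in every library, the values were Pax1 -0.015 at day 1 against steady state. With the thymocyte score, the values were Pax1 -0.15 at day 1 against steady state, Prss16 -0.14, Enpep -0.19, Ctsl -0.012 and Cd83 0.11 at day 4 against steady state, Ly75 -0.27 and Enpep 0.0067 at day 7 against day 1. With the epithelial score, the values were Pax1 -0.31 at day 1 against steady state, Prss16 -0.72 and Dll4 -0.032 at day 4 against steady state, Foxn1 0.40, Prss16 0.92, Ly75 0.57, Dll4 0.52, Tbata 0.59, Cd83 0.69 and Pax1 0.49 at day 7 against steady state, Foxn1 1.07 and Pax1 0.79 at day 7 against day 1, Prss16 1.64, Dll4 0.55, Tbata 0.12 and Cd83 1.33 at day 7 against day 4. With the epithelial score without Krt8 and Krt18, the values were Pax1 -0.18 at day 1 against steady state, Prss16 -0.095 at day 4 against steady state, Foxn1 0.44, Prss16 1.18, Ly75 0.63, Dll4 0.63, Tbata 0.63, Cd83 0.88 and Pax1 0.62 at day 7 against steady state, Foxn1 0.98 and Pax1 0.80 at day 7 against day 1, Prss16 1.28, Dll4 0.45 and Cd83 0.97 at day 7 against day 4. With the score of 5 markers, the values were Pax1 -0.54 at day 1 against steady state, Foxn1 -0.062, Prss16 -0.78, Dll4 -0.26 and Tbata -0.39 at day 4 against steady state, Foxn1 0.49, Prss16 0.41, Ly75 0.51, Dll4 0.33, Tbata 0.63, Cd83 0.37 and Pax1 0.28 at day 7 against steady state, Foxn1 1.79 and Pax1 0.82 at day 7 against day 1, Foxn1 0.55, Prss16 1.19, Ly75 0.32, Dll4 0.59, Tbata 1.03 and Cd83 1.66 at day 7 against day 4. With the tag family, the values were Pax1 -0.12 at day 1 against steady state, Cd83 0.19 at day 4 against steady state, Prss16 0.39, Ly75 0.15, Dll4 0.20 and Cd83 0.017 at day 7 against steady state, Foxn1 0.24 and Pax1 0.077 at day 7 against day 1, Prss16 0.013 at day 7 against day 4. With RLE normalization, the values were Cd83 0.015 at day 4 against steady state. With DESeq2, the values were Cd83 0.016 at day 4 against steady state. When 1 library was left out, Foxn1 at day 1 against steady state ran from -1.33 to 0.15, Pax1 at day 1 against steady state ran from -0.70 to 0.56, Cd83 at day 4 against steady state ran from -0.32 to 0.39, Prss16 at day 4 against steady state ran from -0.49 to 0.91, Enpep at day 4 against steady state ran from -0.013 to 0.28, Dll4 at day 7 against steady state ran from -0.32 to 0.075, Ly75 at day 7 against day 1 ran from -0.11 to 1.16 and Foxn1 at day 7 against day 1 ran from -0.64 to 0.33.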

Other observations

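Proliferation genes were among those that rose at day 7. Of 6 proliferation genes (Mki67, Top2a, Cdk1, Ccnb1, Mcm5 and Pcna), 5 rose at day 7 against day 1 and 4 rose against day 4, where 8.13% and 3.9% of all genes passed in either direction, and their summed level was 88.4 to 187 CPM at steady state, 66.5 to 105 at day 1, 70.5 to 78.3 at day 4 and 108 to 1105 at day 7, where the lowest library lay within the steady-state range. The 10 thymocyte markers rose in both comparisons, 10 of 10, and their sum at day 7 ran from 177 to 4050 CPM, so that these libraries held very different amounts of thymocyte RNA. Of the 8 general epithelial markers, 2 fell at day 7 against day 1, Cdh1 (log2 fold change -1.74) and Esrp1 (-1.86), and 3 fell against day 4, Krt18 (-1.77), Cdh1 (-1.89) and Esrp1 (-2.19).

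Of 9 markers of medullary TECs, 3 fell at day 7 against day 1, Ccl21a (-1.80), Krt14 (-1.79) and Cldn4 (-2.29), 2 fell against day 4, Ccl21a (-2.25) and Krt5 (-2.61), and 0 passed in a comparison with steady state. Their summed level was 476 to 1309 CPM at steady state, 997 to 1351 at day 1, 1453 to 1819 at day 4 and 376 to 544 at day 7. The mural cell list was summed at 1991 to 2859 CPM at day 1 against 921 to 1768 CPM at steady state, without overlap, and 1 of its 7 genes rose, Pdgfrb (1.68, SE 0.412, edgeR adjusted p = 0.00547). Of the 7 fibroblast, 8 endothelial, 8 macrophage and dendritic cell and 5 B cell markers, 0 passed in a comparison with steady state. The erythroid list, of which 4 of 5 fell at days 1 and 4 against steady state, was summed at 4.39 to 7.16 CPM at day 4.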
